A study of Mus musculus with 9 samples.

Results

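Mitosis genes encode the machinery that carries a cell from the end of G2 through chromosome segregation to cytokinesis. The 45 genes described here were listed by name for their roles as mitotic kinases, spindle motors, checkpoint proteins, condensin subunits and cytokinesis proteins. On the array, 38 of the 45 had at least 1 probe set (a set of short oligonucleotides that reports 1 transcript), 52 probe sets in all out of 12422. Of these, 47 probe sets for 37 genes rose above a detection floor of 197 intensity units on at least 2 of the 9 arrays and were tested. Ccnb1, Cdc25b, Bub1b, Cenpf, Tpx2, Hmmr and Ncapd2 had no probe set in the annotation used here, and both probe sets of Cenpe lay below the floor, so these 8 genes have no value below.

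The study compared epithelial cell lines from mouse prostate, 1 wild-type control (wtPrE) and 1 lacking the retinoblastoma gene (Rb-/-PrE, called Rb-null here). Each line was kept in RPMI-1640 with 5% fetal bovine serum or held for 48 hours without serum. Total RNA was hybridised to 9 single-channel arrays, 5 for the wild-type line (3 with serum, 2 serum-free) and 4 for the Rb-null line (2 with serum, 2 serum-free). Each genotype was 1 line, so genotype and line cannot be told apart. Neither the deleted part of Rb1 nor separate cultures behind a group's arrays are stated in the labels, so the p-values below measure the spread between arrays, which may be technical.

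Entry into mitosis depends on cyclin B bound to CDK1, which is switched on by CDC25 phosphatases and promoted by Polo-like and Aurora kinases. Kinesins and microtubule-binding proteins then build the spindle, the checkpoint holds back the anaphase-promoting complex until every chromosome is attached, and condensin and topoisomerase II compact and untangle the chromosomes. Transcripts of many of these genes accumulate in G2 and M and are low in resting cells, where the MuvB complex with E2F4 and pocket proteins such as p130 represses them through CHR elements in their promoters, and serum withdrawal is a common way to bring cultured cells to rest. The retinoblastoma protein restrains E2F factors and with them the entry into S phase.

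The label of the Rb-null line was checked first. Rb1 read 714, 398 and 368 in wild-type cells with serum and 386 and 370 in wild-type cells without serum, and all 4 Rb-null arrays lay at the floor, with deposited intensities of 112 to 166. Whether this probe set lies in the deleted part is not known here. All 12 epithelial markers, keratins and Cdh1 among them, lay above the floor on all arrays, with a summed intensity of 48921 to 54865. Other cell types' lists were mixed: above the floor on all arrays lay 6 of 8 fibroblast markers (not Lum and Vim), 2 of 5 of smooth muscle (Tagln and Des), 3 of 6 of endothelium (Pecam1, Kdr and Vwf), 4 of 8 of leukocytes (Cd68, Cd3e, Cd79a and Itgam) and 3 of 5 neuroendocrine ones (Chga, Ncam1 and Uchl1). Below it on all arrays lay Lum and Vim, Ptprc, Cd79b and Lyz2 of leukocytes, Acta2, Myh11 and Cnn1 of smooth muscle, Tek and Tie1 of endothelium, and the neuroendocrine Chgb. The first wild-type serum array stood apart: its rank correlation with the other wild-type serum arrays was 0.974 and 0.969, against 0.995 between those. It was the highest of the 3 for 28 of the 37 mitosis genes (75.7%, against 42.0% of all genes). Calls by the probe set that represents each gene are therefore given both ways where they change without it.

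Mitosis transcripts were much lower after serum withdrawal, in both lines. In wild-type cells 32 of the 37 genes fell and none rose, with a median log2 difference of -1.58 against 0.05 over all genes tested. In Rb-null cells 31 fell and none rose, with a median of -1.73 against 0.00 over all genes. The test was limma's moderated test with Benjamini-Hochberg adjustment over all tested probe sets at 0.05, each gene being represented by its tested probe set of highest mean. Of all 7063 genes tested, 9.32% fell and 7.22% rose in wild-type cells, and 6.64% fell and 7.62% rose in Rb-null cells. At an unadjusted p under 0.05 the counts were 34 lower and 0 higher in wild-type cells and 33 lower and 0 higher in Rb-null cells. The share of all genes at that threshold was not computed. The withdrawal differences of the 2 lines share no array, but their calls share 1 spread estimated from all 9 arrays and so are not independent. Of the 37 genes, 30 fell in both lines (81.1%, against 4.49% of all genes). Called genes at least 2-fold lower numbered 26 of 37 in each line, where 1.29% of all genes in wild-type cells and 1.05% in Rb-null cells were as low. Of the 20 genes lowest after withdrawal among all genes tested, 11 in wild-type cells and 14 in Rb-null cells were mitosis genes.

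By array, the median of the 37 genes relative to the wild-type serum mean was, on the log2 scale, 0.14, -0.05 and -0.11 for wild-type serum cells and 0.18 on both Rb-null serum arrays. Without serum it was -1.55 and -1.61 in wild-type cells and -1.54 on both Rb-null arrays. The serum-free arrays of both lines thus lay together and far below all 5 serum arrays. The RNA came from whole cultures, so fewer cells in mitosis and less mitotic RNA per cell cannot be told apart. Values are in arbitrary intensity units after quantile normalisation, and a group wholly at the floor gives a lower bound, written as at least N-fold. Such groups enter the medians at the floor.

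**Figure D1:**
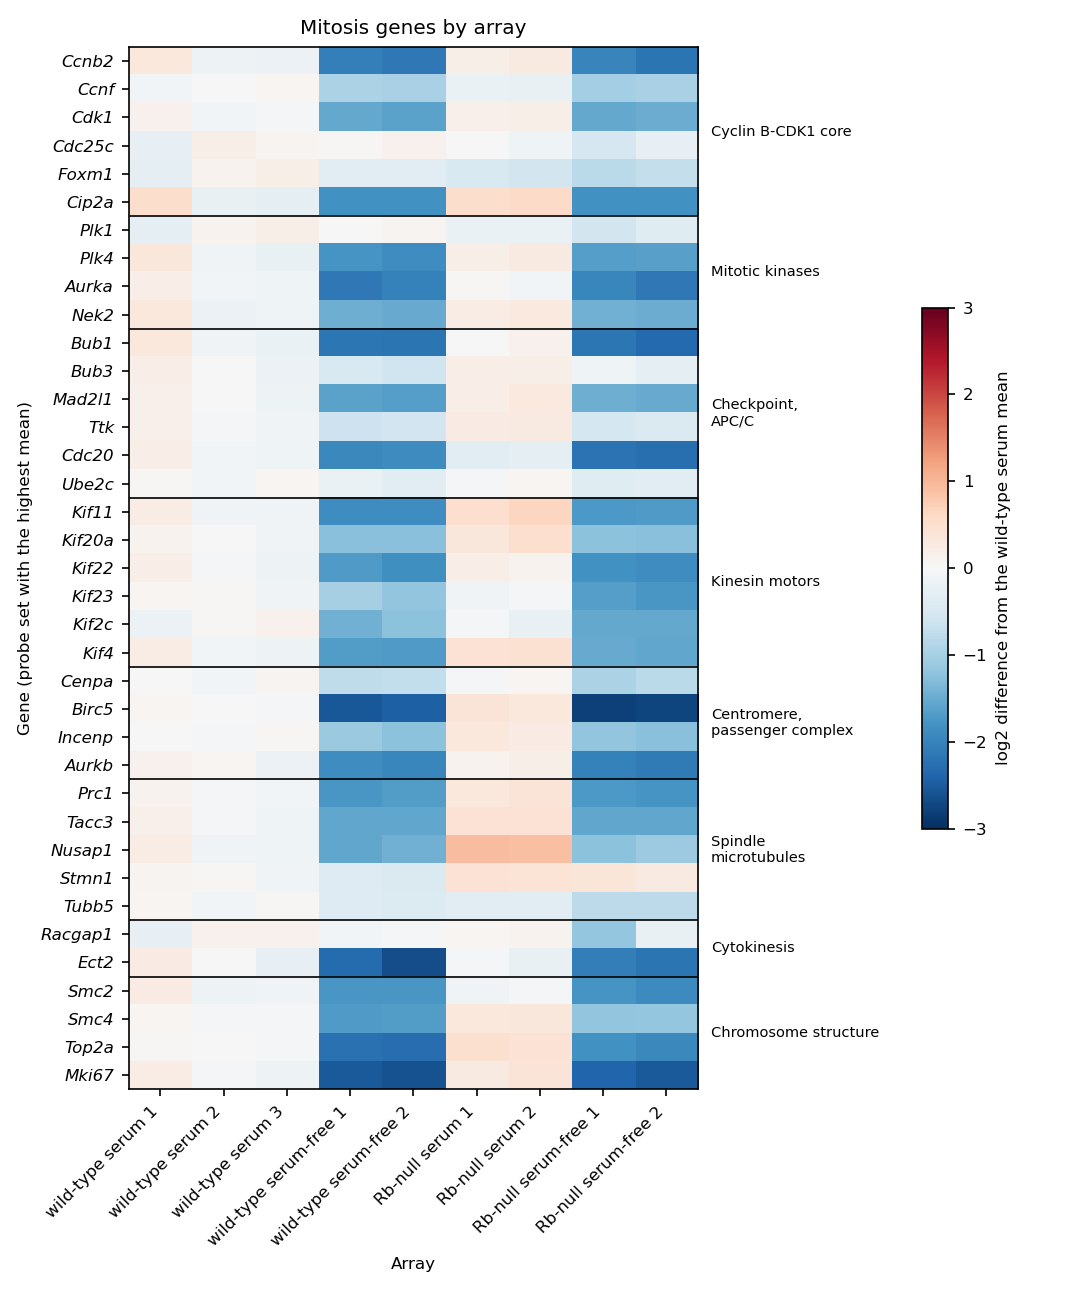
Heat map of the 37 tested mitosis genes (vertical axis, by role) on the 9 arrays (horizontal axis), coloured by log2 intensity relative to each gene's mean in wild-type serum cells. Most genes are low on the 4 serum-free arrays of both lines, where the median of the genes lies between -1.61 and -1.54, while Plk1, Cdc25c, Foxm1 and Racgap1 change little in wild-type cells.

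As most of these genes moved together, their promoters were read for 2 elements known from G2 and M genes, the CHR (cell cycle genes homology region, letters TTTGAA) and the CCAAT box. RefSeq promoters of GRCm38.p6, from 250 bases before to 50 after the start, were found for 37 of the 45 genes. These are not the same 37 as the tested genes. Ccnb1, Cdc25b, Bub1b, Cenpe, Cenpf, Hmmr and Ncapd2 had a promoter but no expression value. The tested Cdc25c, Foxm1, Kif20a, Incenp, Aurkb, Stmn1 and Smc4 had no promoter here. Both strands were searched, so TTCAAA and ATTGG also count, and the elements do not overlap in letters. The CHR letters were present in 25 of the 37 genes (67.6%, against 20.2% of 27025 genes with a promoter), and CCAAT in 31 (83.8%, against 41.1%). Both were present in 24 (64.9%, against 7.97%). A match is a description of letters and not a binding site. The 110 bases before the start are shown for 7 genes with large falls after withdrawal, 6 that carry matches and Birc5, which carries none, with capitals marking the matches. Cyclin B2 has 3 CCAAT matches here and its CHR letters outside the stretch, and CDK1 has 2 of each. Cdc20, Kif22 and Kif11 pair a CHR match near the start with CCAAT further upstream, and Cdc20 has another CCAAT close to the start. Coordinates and strands are Ccnb2 chr9:70421555-70421664 (minus strand), Cdk1 chr10:69352913-69353022 (minus strand), Cdc20 chr4:118437344-118437453 (minus strand), Kif22 chr7:127042421-127042530 (minus strand), Kif11 chr19:37376272-37376381 (plus strand), Top2a chr11:99024190-99024299 (minus strand) and Birc5 chr11:117849127-117849236 (plus strand).
Ccnb2: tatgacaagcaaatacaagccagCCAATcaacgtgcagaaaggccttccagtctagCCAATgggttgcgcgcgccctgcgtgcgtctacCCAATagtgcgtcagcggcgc
Cdk1: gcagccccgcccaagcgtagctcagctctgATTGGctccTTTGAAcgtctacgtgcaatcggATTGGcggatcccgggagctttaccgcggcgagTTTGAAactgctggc
Cdc20: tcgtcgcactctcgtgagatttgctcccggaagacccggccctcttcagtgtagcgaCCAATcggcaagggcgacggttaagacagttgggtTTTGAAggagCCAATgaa
Kif22: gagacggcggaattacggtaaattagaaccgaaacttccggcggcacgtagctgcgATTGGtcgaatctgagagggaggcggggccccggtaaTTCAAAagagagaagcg
Kif11: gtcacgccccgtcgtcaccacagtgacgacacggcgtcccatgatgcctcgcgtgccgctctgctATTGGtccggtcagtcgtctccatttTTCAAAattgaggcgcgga
Top2a: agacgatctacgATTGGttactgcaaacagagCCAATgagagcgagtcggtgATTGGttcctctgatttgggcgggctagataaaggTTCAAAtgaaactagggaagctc
Birc5: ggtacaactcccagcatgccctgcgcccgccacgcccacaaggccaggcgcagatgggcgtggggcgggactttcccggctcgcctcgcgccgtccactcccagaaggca

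Across the matched genes, 26 of the 37 CHR matches (70.3%) and 47 of the 74 CCAAT matches (63.5%) began between 100 bases before and 50 bases after the start, counting every listed promoter. The median first base was at -18 for CHR and at -79.5 for CCAAT. S-phase genes, a list of 40 replication genes used for comparison, held the CHR letters in 12.1% and CCAAT in 63.6% of the 33 with a promoter, and both in 6.06%. Of the 26 mitosis genes with a promoter that fell in both lines by their main probe sets, 61.5% held both elements. So did the 4 other tested genes with a promoter, Bub3, Plk1, Racgap1 and Ube2c. Those 4 are not a set without a fall. Bub3 was called lower in wild-type cells, Ube2c in Rb-null cells, and Plk1 in both lines by another probe set. Birc5, Mad2l1, Nusap1, Plk4 and Tacc3 held neither in this window and Kif2c held only the CHR letters, and all 6 fell in both lines.

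**Figure D2:**
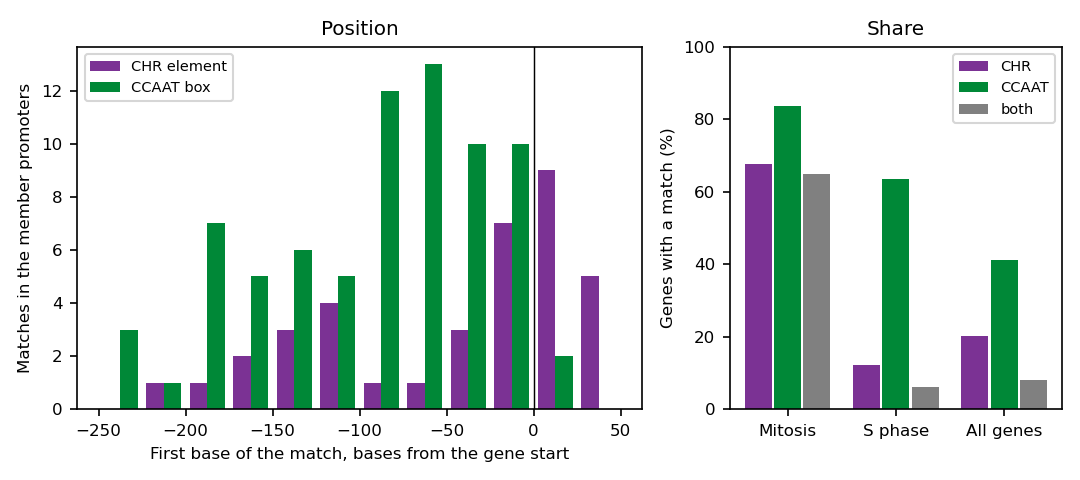
Left, number of CHR and CCAAT matches (vertical axis) by the first base's distance from the gene start (horizontal axis, bases) in the mitosis gene promoters. Right, percent of genes with a match among mitosis genes, S-phase genes and all genes, where both elements are held by 64.9%, 6.06% and 7.97%.

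In the cyclin B and CDK1 core, 4 of 6 tested genes fell in each line, with medians of -1.27 in wild-type and -1.23 in Rb-null cells. Cdk1, the kinase that drives entry into mitosis, read 4405, 3762 and 3894 in wild-type serum cells, 1379 and 1314 without serum, 4432 and 4548 in Rb-null serum cells, and 1376 and 1438 without serum. The serum and serum-free arrays did not overlap in either line, and the lines lay side by side. Cdk1 fell 2.98-fold in wild-type cells (log2 -1.58, SE 0.08, adjusted p = 3.59e-06) and 3.19-fold in Rb-null cells (log2 difference -1.67, SE 0.09, adjusted p = 5.39e-06). Ccnb2, a B-type cyclin and activating partner of CDK1, fell 4.30-fold and 4.94-fold, from 2151 to 3011 in wild-type serum cells to 579 and 544. Ccnf, the F-box cyclin of an SCF ubiquitin ligase, fell 1.95-fold and 1.73-fold. Cip2a, an inhibitor of the phosphatase PP2A, read 998, 597 and 563 in wild-type serum cells and 998 and 1027 in Rb-null serum cells, and lay at the floor on all 4 serum-free arrays. Its fall was at least 3.53-fold in wild-type cells (adjusted p = 0.000363) and at least 5.15-fold in Rb-null cells (adjusted p = 0.00018).

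Foxm1 and Cdc25c did not pass by their main probe sets. Foxm1, the transcription factor that activates many G2 and M genes, read 1447, 1885 and 1987 in wild-type serum cells and 1402 and 1383 without serum, then 1276 and 1192 in Rb-null serum cells and 999 and 1068 without serum. Its withdrawal difference was -0.34 in wild-type cells (adjusted p = 0.116) and -0.26 in Rb-null cells (adjusted p = 0.318), far from the size seen for Cdk1. Its other probe set gave -0.44 in wild-type cells, which passed (adjusted p = 0.024) but not without wild-type serum array 2 or 3 or either wild-type serum-free array (adjusted p up to 0.19), and -0.22 in Rb-null cells, which did not pass. Without wild-type serum array 1 the main Foxm1 probe set passed in both lines, at -0.48 in wild-type cells (adjusted p = 0.00102) and -0.25 in Rb-null cells (adjusted p = 0.0242). Cdc25c, a phosphatase that activates CDK1, had probe sets that disagreed. The brighter read 624, 836 and 787, then 763 and 807, then 739 and 681, then 527 and 629 in the order of groups used for Cdk1, and passed in neither line, although its -0.30 in Rb-null cells passed without wild-type serum array 1 (adjusted p = 0.0496). The other, whose name carries a suffix for shared sequence, read 801, 575 and 597 in wild-type serum cells and 732 and 725 in Rb-null serum cells, and 197 to 210 without serum. By that probe set Cdc25c fell at least 3.31-fold in wild-type cells (adjusted p = 3.65e-05) and 3.56-fold in Rb-null cells (adjusted p = 5.18e-05).

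Of the 4 mitotic kinases, 3 fell in each line. Aurka, the centrosomal Aurora kinase, read 1102, 907 and 867 in wild-type serum cells, 216 and 233 without serum, 973 and 906 in Rb-null serum cells, and 245 and 215 without serum. The serum-free arrays of both lines were close to the floor of 197. Aurka fell 4.25-fold in wild-type cells (log2 -2.09, SE 0.12, adjusted p = 7.75e-06) and 4.08-fold in Rb-null cells (log2 difference -2.03, SE 0.13, adjusted p = 1.42e-05). Plk4, which starts centriole duplication, fell 3.51-fold and 3.64-fold, and Nek2, a centrosome-splitting kinase, fell 2.80-fold and 3.32-fold.

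Plk1, the Polo-like kinase required through mitosis, gave 3 different answers. All 3 of its probe sets carry a suffix that marks shared or less specific sequence. The brightest read 3114, 4118 and 4325 in wild-type serum cells, 3858 and 4051 without serum, 3301 and 3346 in Rb-null serum cells, and 2597 and 2958 without serum, and it passed in neither line (log2 0.05 and -0.26), though its Rb-null difference passed without wild-type serum array 1 (adjusted p = 0.0219). Another gave -0.22 in wild-type cells (adjusted p = 0.0871) and -0.31 in Rb-null cells (adjusted p = 0.0415), which no longer passed once wild-type serum array 2 or 3 or any Rb-null array was left out (adjusted p up to 0.312). The third read 1933, 1481 and 1468, then 267 and 245, then 1649 and 1589, then 281 and 244. By it Plk1 fell 6.32-fold in wild-type cells (log2 -2.66, adjusted p = 3.59e-06) and 6.18-fold in Rb-null cells (log2 -2.63, adjusted p = 7e-06). Which of the 3 reports Plk1 transcript was not tested.

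**Figure D3:**
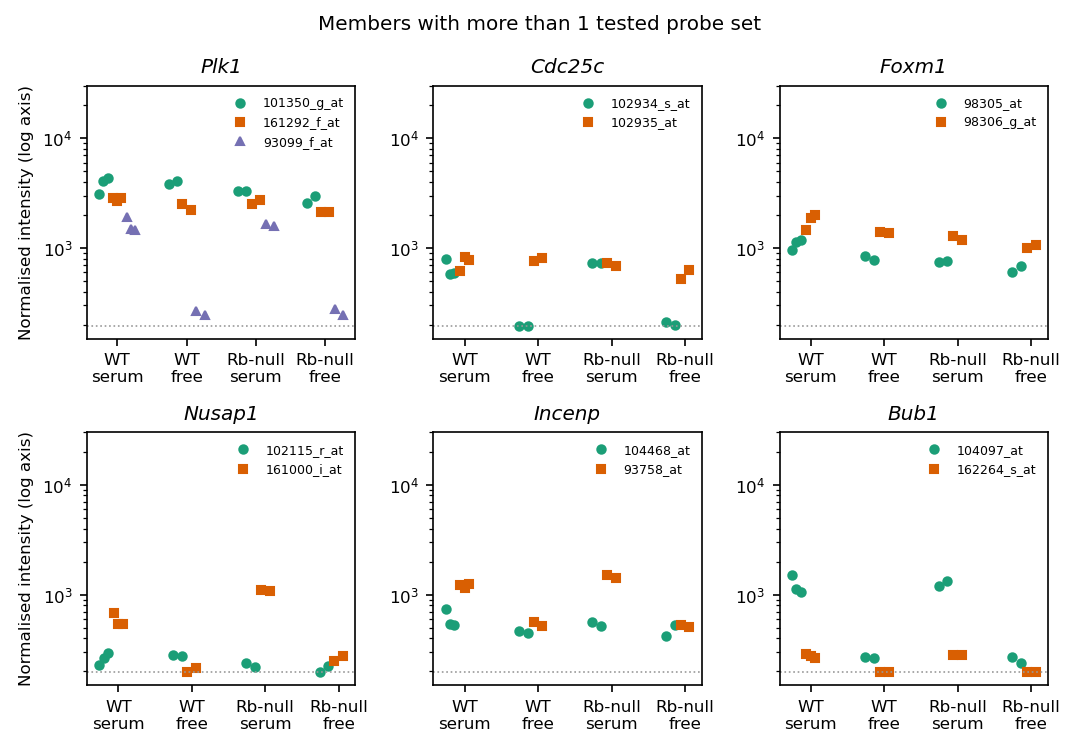
Normalised intensity (vertical axis, log scale) on each array in the 4 groups (horizontal axis) for 6 mitosis genes with more than 1 tested probe set, 1 symbol per probe set, with the floor of 197 as a dotted line. One probe set of Plk1 and one of Cdc25c drop toward the floor without serum, while the brightest of the same gene read 3858 and 4051 (Plk1) and 763 and 807 (Cdc25c) in wild-type serum-free cells.

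Probe sets of other genes also disagreed in part. Nusap1 and Incenp each fell by 1 probe set and not by the other, and the second probe set of Bub1, which shares sequence with related transcripts, lay just above the floor in serum and gave at least 1.41-fold and at least 1.43-fold. Counted by probe set, 39 of 47 fell in wild-type cells (9.25% of all probe sets tested), 38 in Rb-null cells (6.42%) and 36 in both. By at least 1 probe set in at least 1 line, 36 of the 37 genes fell. A letter suffix of any kind was carried by 14 of the 47. Among these were the main probe sets of Foxm1, Plk1, Ube2c, Kif20a, Kif22, Nusap1 and Tubb5.

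Among spindle checkpoint and APC/C genes, 5 of 6 fell in each line, with medians of -1.11 and -1.24. Cdc20, the activator of the anaphase-promoting complex, read 3630, 2979 and 2861 in wild-type serum cells, 818 and 849 without serum, 2467 and 2587 in Rb-null serum cells, and 679 and 659 without serum. Serum and serum-free arrays were far apart in both lines, and Rb-null arrays were the lower in both media. Cdc20 fell 3.77-fold in wild-type cells (log2 -1.91, SE 0.10, adjusted p = 5.73e-06) and 3.78-fold in Rb-null cells (log2 difference -1.92, SE 0.11, adjusted p = 1.07e-05). Bub1, a kinetochore kinase of the checkpoint, fell 4.55-fold and 4.94-fold. Mad2l1, the checkpoint protein that captures CDC20, fell 3.10-fold and 3.32-fold, and Ttk, the checkpoint kinase MPS1, fell 1.51-fold and 1.68-fold. Bub3, which docks BUB1 at kinetochores, fell 1.44-fold in wild-type cells (adjusted p = 0.00897) but not without wild-type serum-free array 2 (adjusted p = 0.111), and its -0.38 in Rb-null cells did not pass (adjusted p = 0.0614) but did without wild-type serum array 1 or 3 (adjusted p = 0.00835 and 0.0259). Ube2c, the ubiquitin-conjugating enzyme of the complex, fell 1.27-fold in Rb-null cells (adjusted p = 0.0277), but no longer when any of the 4 Rb-null arrays was left out (adjusted p up to 0.226), and its -0.27 in wild-type cells did not pass.

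All 6 kinesins fell in both lines, with medians of -1.51 in wild-type and -1.82 in Rb-null cells. Kif11, the motor that pushes spindle poles apart, read 834, 665 and 663 in wild-type serum cells, the floor on both wild-type serum-free arrays, 1020 and 1124 in Rb-null serum cells, and 217 and 219 without serum. It fell at least 3.64-fold in wild-type cells (adjusted p = 8.48e-06) and 4.92-fold in Rb-null cells (adjusted p = 6.04e-06). Kif22, a chromosome-arm motor, fell 3.41-fold and 3.97-fold, and Kif4, a chromokinesin of the central spindle, fell 3.24-fold and 3.96-fold. Kif4 read 796, 648 and 617 in wild-type serum cells and 212 and 210 without serum, and 920 and 942 in Rb-null serum cells and 238 and 232 without serum. Kif20a, a cytokinesis motor, fell 2.40-fold and 3.16-fold, and Kif2c, a microtubule depolymerase at centromeres, fell 2.52-fold and at least 2.65-fold. Kif23, the motor of the centralspindlin complex, read 2671, 2650 and 2385, then 1293 and 1122 in wild-type cells, and 2397 and 2499, then 822 and 766 in Rb-null cells. Its fall was 2.13-fold and 3.08-fold, and its serum-free level was the lower in Rb-null cells.

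All 4 centromere and chromosomal passenger genes fell in both lines. Birc5 (survivin), which brings the passenger complex to centromeres, read 2369, 2273 and 2175 in wild-type serum cells, 389 and 414 without serum, 2954 and 2828 in Rb-null serum cells, and 326 and 337 without serum. No 2 groups overlapped: Rb-null cells were the highest with serum and the lowest without it. Birc5 fell 5.66-fold in wild-type cells (log2 -2.50, SE 0.08, adjusted p = 8.37e-07) and 8.71-fold in Rb-null cells (log2 difference -3.12, SE 0.08, adjusted p = 2.52e-07). Aurkb, the kinase of the complex, fell 3.75-fold and 4.64-fold. Incenp, its scaffold, fell 2.25-fold and 2.84-fold, while its dimmer probe set gave -0.39 (adjusted p = 0.134) and -0.20 (adjusted p = 0.582). Cenpa, the centromeric histone, fell 1.67-fold and 1.84-fold.

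Of the 5 spindle microtubule genes, 5 fell in wild-type and 4 in Rb-null cells. Nusap1, a microtubule-bundling protein, read 683, 540 and 535 in wild-type serum cells, 198 and 213 without serum, 1104 and 1085 in Rb-null serum cells, and 249 and 275 without serum. It fell 2.83-fold and 4.19-fold, and its dimmer probe set gave 0.11 and -0.12, neither of which passed. Prc1, which crosslinks antiparallel microtubules of the midzone, fell 3.29-fold and 4.26-fold. Tacc3, a spindle-stabilising partner of Aurora A, read 641, 562 and 530 in wild-type serum cells and 781 on both Rb-null serum arrays, with all serum-free arrays at the floor, falls of at least 2.93-fold and at least 3.97-fold. Tubb5, a beta-tubulin with uses outside mitosis, read 15312, 13887 and 15052 in wild-type serum cells and 11308 and 11023 without serum. In Rb-null cells it read 11875 and 11623 with serum and 8585 on both serum-free arrays. Tubb5 fell 1.32-fold and 1.37-fold. Stmn1 (stathmin), which destabilises microtubules, read 2980, 2844 and 2582 in wild-type serum cells, 2126 and 2080 without serum, 3793 and 3692 in Rb-null serum cells, and 3595 and 3357 without serum. It fell 1.33-fold in wild-type cells (adjusted p = 0.00493), though not without wild-type serum-free array 2 (adjusted p = 0.0543), and its -0.11 in Rb-null cells did not pass (adjusted p = 0.521).

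The 2 cytokinesis genes differed from each other. Ect2, the exchange factor that activates RhoA at the cleavage furrow, read 2579, 2175 and 1822 in wild-type serum cells, 435 and 345 without serum, 2112 and 1865 in Rb-null serum cells, and 514 and 473 without serum. It fell 5.60-fold in wild-type cells (adjusted p = 1.03e-05) and 4.02-fold in Rb-null cells (adjusted p = 7.15e-05). Racgap1, the centralspindlin partner of KIF23, read 1810, 2352 and 2367, then 2043 and 2093 in wild-type cells, and 2261 and 2340, then 959 and 1837 in Rb-null cells. Its Rb-null serum-free arrays lay far apart, and its differences of -0.06 (adjusted p = 0.881) and -0.79 (adjusted p = 0.0702) did not pass. The Rb-null difference passed without wild-type serum array 1 (-0.79, adjusted p = 0.0322) or without Rb-null serum-free array 2 (-1.26, adjusted p = 0.00394).

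All 4 chromosome structure genes fell in both lines, with medians of -2.01 and -2.05. Mki67, which coats mitotic chromosomes and marks proliferating cells, read 1413, 1155 and 1086 in wild-type serum cells, 210 and the floor without serum, 1451 and 1590 in Rb-null serum cells, and 231 and 210 without serum. It fell 5.96-fold (log2 -2.58, adjusted p = 2.71e-06) and 6.89-fold (log2 -2.79, adjusted p = 3.95e-06), and its other probe set fell at least 3.66-fold and at least 4.76-fold. Top2a, the topoisomerase that untangles sister chromatids, read 1956, 1880 and 1855 in wild-type serum cells, 400 and 391 without serum, 2626 and 2541 in Rb-null serum cells, and 539 and 493 without serum. In both media the Rb-null arrays lay above the wild-type arrays. Top2a fell 4.80-fold (adjusted p = 9.19e-07) and 5.01-fold (adjusted p = 8.2e-07). Smc4, a condensin subunit, read 1882, 1770 and 1776, then 561 and 565 in wild-type cells, and 2269 and 2296, then 794 and 810 in Rb-null cells. It fell 3.21-fold and 2.85-fold, and its condensin partner Smc2 fell 3.37-fold and 3.40-fold.

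Whether the response to withdrawal differed between the lines was tested as an interaction, the Rb-null difference minus the wild-type difference. Of the 37 genes, only Birc5 passed, with a fall larger by 0.62 on the log2 scale in Rb-null cells (interaction -0.62, 95% interval -0.88 to -0.36, adjusted p = 0.047), where 0.524% of all genes passed in that direction and 0.396% in the other. The Birc5 call was lost without any single array other than wild-type serum 1 (adjusted p up to 0.26). At an unadjusted p under 0.05 there were 8 genes below 0 and 1 above, and the share of all genes at that threshold was not computed. The interaction was below 0 for 30 of the 37 genes (55.7% of all genes), with a median of -0.16. For 28 genes the 95% interval included 0, and for 35 it lay within -1 and 1 on the log2 scale, with a median half-width of 0.35. For Cip2a, Tacc3, Kif11 and Kif2c at least 1 response is a bound set by the floor, and so the interaction is not a measured size. Over the 37 genes the responses of the lines had a Pearson r of 0.942 and a Spearman rho of 0.918 (r of 0.717 over all genes), a description across genes that share arrays.

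Without wild-type serum array 1, 6 genes were called below 0 and none above, where 1.25% of all genes were called below 0. Birc5 (-0.65), Kif23 (-0.56) and Nusap1 (-0.68) had at least 1 serum-free array above the floor in each line, although Nusap1 came close to it in wild-type cells. Cip2a and Tacc3 lay at the floor on all 4 serum-free arrays, so that their call is only their difference between the lines with serum turned in sign, and it measures no difference in response. For Kif11, at the floor in wild-type serum-free cells, the response of that line is a bound. The median interaction was then -0.23, and 30 of the 37 genes were again below 0. Without any other single array none passed. The fall itself moved little without array 1, with 33 genes lower in wild-type cells (median -1.51) and 36 in Rb-null cells.

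**Figure D4:**
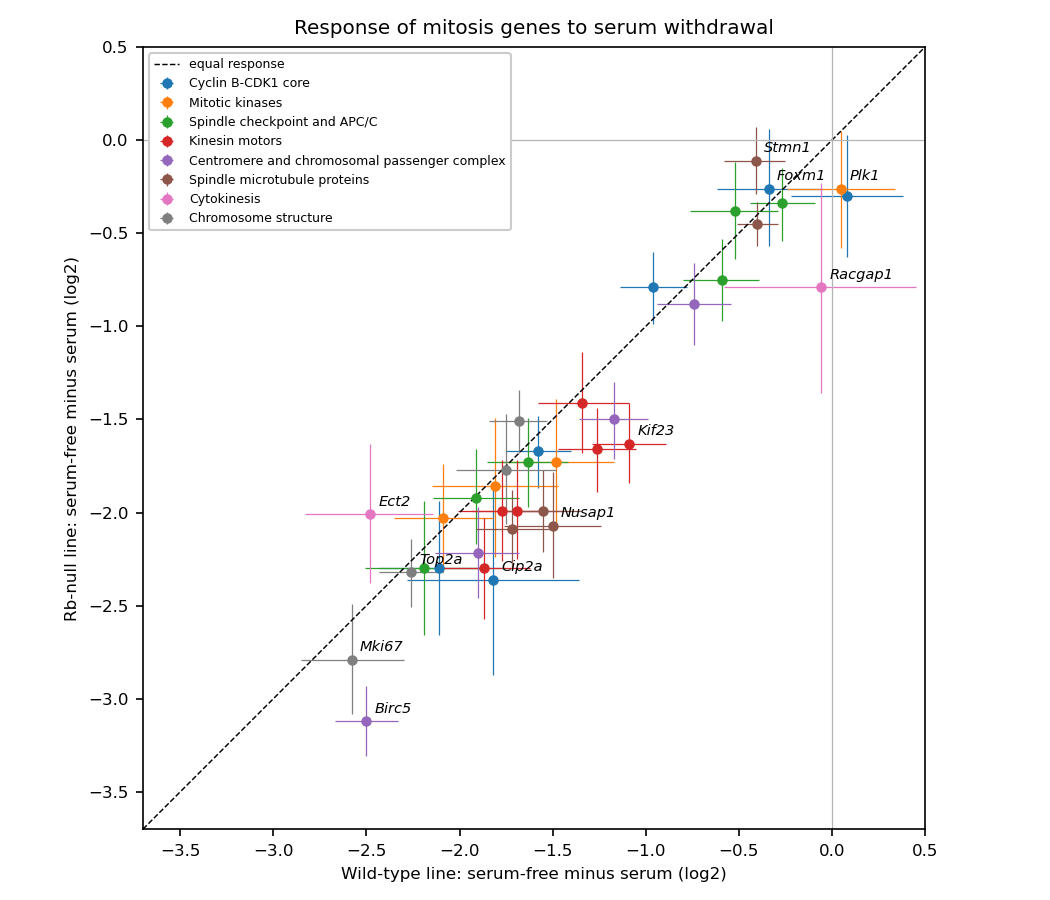
Log2 difference on serum withdrawal in wild-type cells (horizontal axis) against Rb-null cells (vertical axis) for the 37 mitosis genes, coloured by role, with 95% intervals as bars and a dashed line of equal response. Most points lie low in both lines, with medians of -1.58 and -1.73, and Birc5 lies at -2.50 and -3.12.

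With serum, 11 mitosis genes were higher and 2 lower in Rb-null than in wild-type cells, against 14.0% and 10.5% of all genes, and the median difference was 0.18 against -0.03 over all genes. Nusap1 was 1.88-fold higher (log2 0.91, adjusted p = 0.000601) by its brighter probe set, while its other gave -0.19 (adjusted p = 0.248) and, without wild-type serum array 1, passed as lower (-0.28, adjusted p = 0.0189). Kif11 was 1.49-fold higher (adjusted p = 0.00527), Top2a 1.36-fold (adjusted p = 0.00312) and Kif4 1.36-fold (adjusted p = 0.0164). Also higher were Tacc3 (1.36-fold), Stmn1 (1.34-fold), Kif20a (1.34-fold), Birc5 (1.27-fold), Prc1 (1.27-fold), Smc4 (1.26-fold) and Incenp (1.21-fold). The higher genes thus fell among kinesins (3 of 6), spindle microtubule proteins (4 of 5), passenger proteins (2 of 4) and chromosome structure (2 of 4). Lower were Foxm1 (1.42-fold, adjusted p = 0.0181), also by its other probe set (log2 -0.54, adjusted p = 0.00665), and Tubb5 (1.25-fold, adjusted p = 0.00136). None of the kinases or checkpoint genes passed with all arrays. For Cdk1 the difference was 0.16 (95% interval -0.01 to 0.34) and for Aurka -0.02 (-0.29 to 0.24), while Cip2a gave 0.54 (adjusted p = 0.0889) and Cdc20 -0.31 (adjusted p = 0.054).

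These counts rested on single arrays. Without wild-type serum array 1, 21 genes were higher (22.9% of all genes) and 5 lower (23.8%), with a median of 0.28 against -0.05, and all 11 were among the 21. The other 10 included the kinases Plk4 (0.39, adjusted p = 0.00291) and Nek2 (0.42, adjusted p = 0.00111), the checkpoint genes Mad2l1 (0.32, adjusted p = 0.00562), Ttk (0.33, adjusted p = 0.00394) and Bub3 (0.28, adjusted p = 0.0213), and Cdk1 (0.23, adjusted p = 0.0106). They were completed by Cip2a (0.80, adjusted p = 2.26e-05), Mki67 (0.44, adjusted p = 0.00293), Ccnb2 (0.38, adjusted p = 0.00603) and Kif22 (0.26, adjusted p = 0.0217). The other Mki67 probe set was higher with all arrays (0.38, adjusted p = 0.00702), but lost that call without Rb-null serum array 2. By their second probe sets Cdc25c was higher (0.31, adjusted p = 0.00367) and Tubb5 lower (-0.25, adjusted p = 0.00897) without wild-type serum array 1. The lower calls gained were Plk1 (-0.35, adjusted p = 0.00351), Ccnf (-0.24, adjusted p = 0.0164) and Cdc20 (-0.21, adjusted p = 0.0235), and Cdc20 also passed without wild-type serum array 3 (-0.38, adjusted p = 0.0389). Without Rb-null serum array 1 the counts were 5 higher and 1 lower, without Rb-null serum array 2 they were 3 and 1, and without wild-type serum array 2 the lower count was 1. Nusap1, Top2a and Stmn1 stayed higher and Tubb5 lower without any single array. Their adjusted p was up to 0.0101, 0.0442, 0.0434 and 0.0254 over all alternatives tried. The probe sets behind the Nusap1 and Tubb5 calls carry a letter suffix. Kif11 and Kif20a lost the call without Rb-null serum array 2 (adjusted p = 0.069 and 0.12), and Tacc3, Birc5 and Smc4 without either Rb-null serum array (adjusted p up to 0.0594, 0.112 and 0.0914). Foxm1 and Kif4 lost it without those or wild-type serum array 2 (adjusted p up to 0.145 and 0.117). So did Prc1 and Incenp, which also lost it without wild-type serum array 3 and, for Incenp, without wild-type serum-free array 1 (adjusted p up to 0.167 and 0.23). The summed intensities of marker lists of other cell types also differed between the lines. With serum, wild-type against Rb-null arrays read 2855 to 3336 against 2393 to 2537 for neuroendocrine and 2047 to 2352 against 1965 to 1968 for endothelial markers. Fibroblast (3511 to 4468 against 3718 to 3846), smooth muscle (1597 to 1974 against 1628 to 1638) and leukocyte sums (2952 to 3400 against 2937 to 2999) overlapped. Without serum all 5 lists were apart, at 3243 to 3483 against 2476 to 2610 (neuroendocrine), 2144 to 2215 against 1838 to 1936 (endothelial), 4363 to 4422 against 3601 to 3809 (fibroblast), 1920 to 2056 against 1626 to 1663 (smooth muscle) and 3339 to 3484 against 3047 to 3084 (leukocyte). Their part in the differences between the lines was not tested.

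Without serum the median difference between the lines was 0.00, against -0.07 over all genes. Stmn1 was 1.65-fold higher in Rb-null cells (log2 0.72, adjusted p = 0.000326), Smc4 1.42-fold (log2 0.51, adjusted p = 0.00155) and Top2a 1.30-fold (log2 0.38, adjusted p = 0.00948), 3 genes in all against 17.4% of all genes. Kif23 was 1.52-fold lower (log2 -0.60, adjusted p = 0.00227) and Tubb5 1.30-fold lower (log2 -0.38, adjusted p = 0.00102). Plk1 (1.43-fold, adjusted p = 0.0239), Cdc25c (log2 -0.45, adjusted p = 0.0468), Foxm1 (1.35-fold, adjusted p = 0.0427) and Birc5 (1.21-fold, adjusted p = 0.0367) were also lower, 6 genes in all against 14.3%. Plk1 and Cdc25c were called here by the probe sets that did not fall after withdrawal, and by the probe sets that fell the lines did not differ beyond the threshold. With the values as deposited, or scaled to equal medians, the counts were 4 higher and 2 lower in place of 3 and 6. Plk1, Cdc25c, Foxm1 and Birc5 then no longer passed. The balance over all genes moved the same way. As deposited, 1682 of 7077 genes were higher and 435 lower, and after median scaling 1521 of 7084 were higher and 634 lower. With quantile normalisation 1231 of 7063 were higher and 1011 lower. The lower count was 2 without wild-type serum-free array 1, wild-type serum-free array 2 or Rb-null serum-free array 1, and 3 without either Rb-null serum array, and without wild-type serum array 1 the counts were 6 higher and 8 lower. The shares of all genes called without wild-type serum array 1 were not computed here, and the 17.4% and 14.3% are for all arrays. The calls gained without it were Bub3 (0.33, adjusted p = 0.00853), Nusap1 (0.35, adjusted p = 0.00449) and Ect2 (0.35, adjusted p = 0.0462) above 0, and Cdc20 (-0.32, adjusted p = 0.003) and Racgap1 (-0.64, adjusted p = 0.0403) below 0. Without wild-type serum array 3 Bub3 (adjusted p = 0.0258) and Cdc20 (adjusted p = 0.0477) passed too, as did Racgap1 without Rb-null serum-free array 2 (-1.11, adjusted p = 0.00431). The dimmer Nusap1 probe set went the other way from the brighter, at -0.42 with all arrays (adjusted p = 0.0254), a call that ended without either wild-type serum-free array or Rb-null serum-free array 1 (adjusted p up to 0.16). Top2a lost its call without wild-type serum-free array 2 or Rb-null serum-free array 1 (adjusted p up to 0.07), while Stmn1, Smc4, Kif23 and Tubb5 kept theirs in every alternative. Plk1 lost its call without either wild-type serum-free array or Rb-null serum-free array 1 (adjusted p up to 0.147). Cdc25c, Foxm1 and Birc5 lost theirs without any of the 4 serum-free or 2 Rb-null serum arrays, and also without wild-type serum array 3 (Cdc25c) or 2 (Foxm1, Birc5), with adjusted p up to 0.249, 0.189 and 0.164. For Cdk1 the difference was 0.06 (95% interval -0.13 to 0.26) and for Aurka 0.04 (-0.26 to 0.33).

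**Figure D5:**
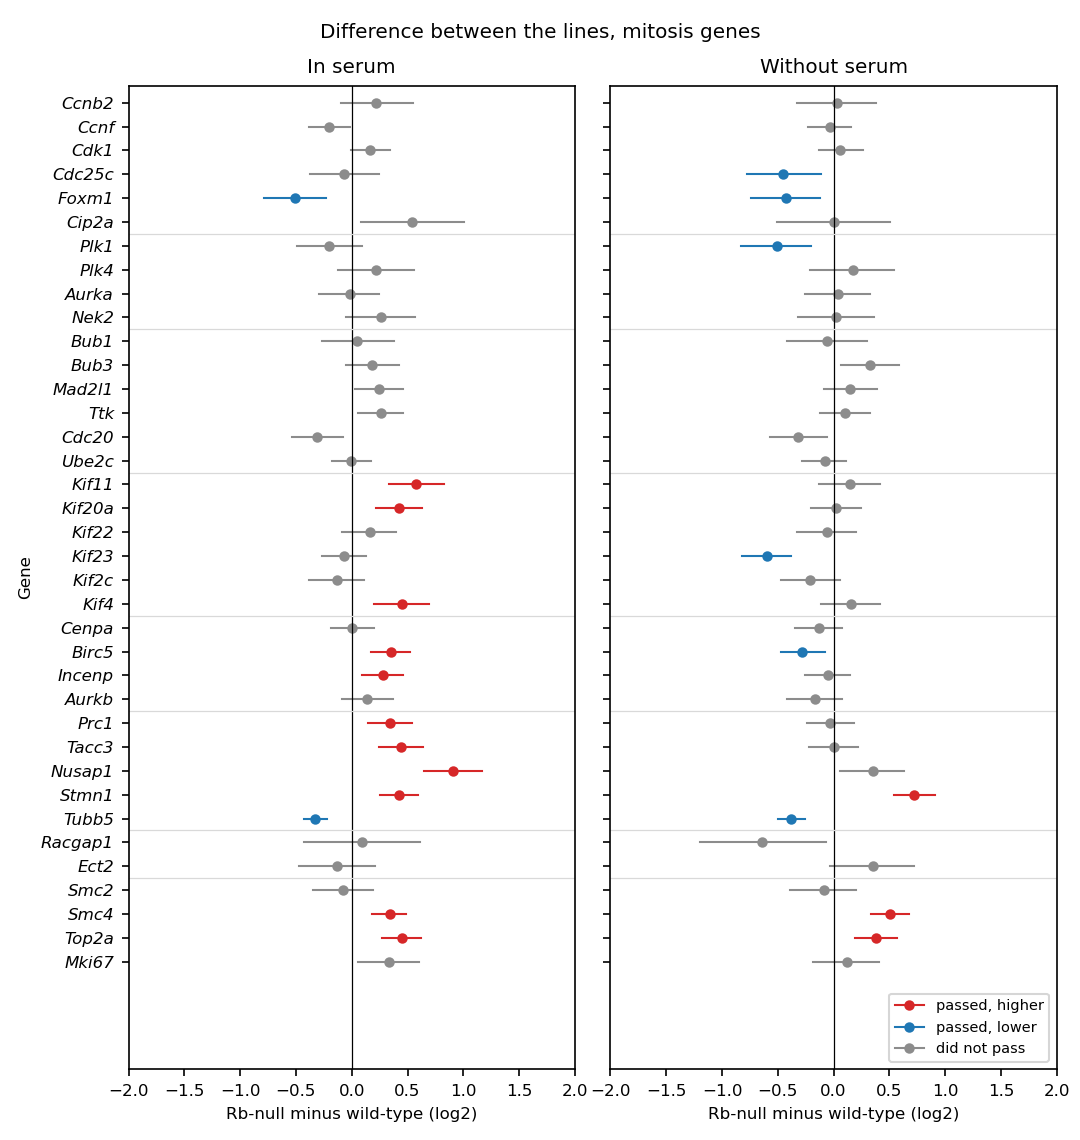
Log2 difference between the lines (horizontal axis, Rb-null minus wild-type, with 95% intervals) for the 37 mitosis genes (vertical axis, by role), with serum (left) and without (right). With serum 11 genes pass above 0 and 2 below, and without serum 3 above and 6 below.

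A wider list of 76 other mitosis genes, 49 of them tested, moved less as a whole. In wild-type cells 24 of the 49 fell and 1 rose (median -0.26), against 9.32% and 7.22% of all genes. In Rb-null cells 21 fell and 3 rose (median -0.27), against 6.64% and 7.62% of all genes. The genes that fell furthest were Anln, the cleavage-furrow scaffold anillin (log2 -2.20 in wild-type and -2.11 in Rb-null cells), Hmgb2 (-1.99 and -1.38), the checkpoint ATPase Trip13 (-1.92 and -2.20), the CDK-binding protein Cks2 (-1.84 and -1.78), the importin Kpna2 (-1.70 and -1.50) and the spindle protein Dlgap5, which lay at the floor on both wild-type serum-free arrays (at least 2.64-fold lower in wild-type cells, and -1.33 in Rb-null cells). Those that rose were motor genes that also serve transport in interphase: Dync1h1 (0.31 and 0.75) in both lines, and Dctn1 (0.67) and Kif3a (0.53) in Rb-null cells. Between the lines 15 were higher (30.6%, against 14.0% of all genes) and 10 lower (20.4%, against 10.5%) in Rb-null serum cells. Without serum 17 were higher (34.7%, against 17.4%) and 8 lower (16.3%, against 14.3%). The interaction of these genes was above 0 for 30 and below 0 for 19, with a median of 0.07. Only Hmgb2 among them passed in the interaction, above 0 (0.61, limma adjusted p = 0.0487), opposite in sign to Birc5. Of all genes 0.396% passed above 0.

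S-phase genes gave a different picture across the lines. Of 35 tested, 26 fell in wild-type cells (median -0.76) and 20 in Rb-null cells (median -0.37), against 9.32% and 6.64% of all genes. None was called higher in either line. At an unadjusted p under 0.05 there was 1 higher in wild-type and 0 in Rb-null cells. Between the lines 13 were higher (37.1%, against 14.0% of all genes) and 2 lower (5.71%, against 10.5%) in Rb-null serum cells. Without serum 16 were higher (45.7%, against 17.4%) and 3 lower (8.57%, against 14.3%). The median without serum was 0.32, where that of the 37 mitosis genes was 0.00. The interaction passed above 0 for the helicase subunits Mcm3 (0.83, adjusted p = 0.017) and Mcm7 (0.86, adjusted p = 0.0228), 5.71% of the list against 0.396% of all genes. At an unadjusted p under 0.05 there were 12 S-phase genes above 0 and none below. The 37 mitosis genes had 1 above and 8 below, and the other mitosis genes 5 above and 5 below. Shares of all genes at that unadjusted threshold were not computed. The difference between the lists was not tested.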

How the data were processed

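Gene expression was measured on 9 single-channel arrays of the 4 groups. Each deposited value was the linear intensity of a probe set on an array. Its software, probe summary and scaling are not stated by any label or header used here. No depth applies to arrays, and their number limits the precision. Upper quartiles differed by 0.22 on the log2 scale, so values were quantile normalised between arrays, raised to a floor of 197 (percentile 25 of all values) and taken to log2. No detection calls were used. A test needed at least 2 arrays above the floor, which left 9686 of 12422 (7063 genes). Symbols came from the platform annotation, updated by gene identifier through RefSeq GRCm38.p6. Of the probe sets, 10833 had 1 gene, 396 several and 1193 none.

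Groups were compared by limma 3.58.1 (R 4.3.3), with 4 group means in 1 fit of all arrays, an intensity trend and 5 residual degrees of freedom, two-sided, with Benjamini-Hochberg adjustment over 9686 probe sets. Intervals are 95%. The procedure was tested on simulated data. Values on every array are given for Cdk1, Plk1, Aurka, Top2a, Mki67, Birc5 and Cdc20, for genes called in the interaction and for the 4 highest and 4 lowest called, non-overlapping genes per comparison. Values of other genes were given for context. The members, the other lists and the promoter motifs were chosen with earlier results of these data known. Alternatives were other scalings, floors and filters, no trend, array weights, averaged probe sets, a replicate block and leaving out each array.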

Additional observations from a re-analysis of the deposited data

Results flagged for a closer look

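Birc5 (survivin) was the only 1 of the 37 mitosis genes whose withdrawal response differed between the lines by the interaction test with all arrays. The interaction was -0.62 on the log2 scale (95% interval -0.88 to -0.36, limma adjusted p = 0.047): the withdrawal difference was -2.50 in wild-type cells and -3.12 in Rb-null cells, with serum and serum-free arrays apart in both lines. Over the alternatives tried, the interaction lay between -0.79 and -0.58 with adjusted p from 0.00366 to 0.26, and it lost its call in 10 of 17, 8 of which left out 1 array.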

How the results depend on the processing

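The fall of the mitosis genes on serum withdrawal kept its direction and nearly its count in every alternative tried, with 30 to 33 genes lower in wild-type cells and 30 to 36 in Rb-null cells when 1 array was left out, and 0 higher. By probe set, 35 of 39 calls in wild-type cells and 35 of 38 in Rb-null cells passed in every alternative. The median was smallest with the floor at percentile 40, at -1.17 and -1.63, since more serum-free values then lie at the floor. Differences between the lines were less stable: 4 of 16 probe set calls with serum, 4 of 11 without and 0 of 1 in the interaction passed in every alternative. Leaving out 1 array gave 3 to 21 genes higher and 1 to 5 lower with serum, 2 to 6 higher and 2 to 8 lower without, and 0 to 6 lower and 0 higher in the interaction. Array weights gave 21 higher and 7 lower with serum, 5 higher without and 7 lower in the interaction. Their estimation did not fully converge. With no filter 1 gene was lower with serum and 3 without. The values as deposited and median scaling each gave 2 lower without serum. Over all genes the lower calls there were also fewer, at 435 and 634 against 1011 with quantile normalisation. With the floor at percentile 10 the interaction count was 0, and at percentile 40 it was 2 (Birc5 and Nusap1). Whether replicate numbers pair the arrays is not stated in the labels. Same-numbered arrays correlated between -0.231 and 0.331 in their deviations from the group means. In a group of 2 arrays these deviations mirror each other, so the correlations cannot settle the pairing. The replicate block gave 7 higher with serum, 5 higher without, 0 in the interaction, and 32 lower on withdrawal in each line. No called value changed sign, and the cause of these shifts was not tested. The floor limits falls of genes that reach it, and the arrays give no measure of signal over background beyond it.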
